A study of Mus musculus with 8 samples.

Results

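The 10 genes described here carry iron through a macrophage: Tfrc, Slc11a1, Slc11a2 and Steap3 for uptake, Fth1, Ftl1 and Ncoa4 for storage and its release, Slc40a1 for export, and Hmox1 and Blvrb for the breakdown of heme. They were chosen by symbol from the deposited expression table, which lists 25124 genes, and all 10 were found once each and passed the filter on low values. The RNA came from osteoclast precursor cells, the macrophages that grow out of mouse bone marrow under the cytokine M-CSF and that can be driven to become osteoclasts, the cells that resorb bone. Marrow of C57BL/6 mice aged 6 to 8 weeks per the labels (the culture methods of the study name ICR mice) was held for 16 h in 5 ng/mL M-CSF, and the cells that had not adhered were grown for 3 days in 30 ng/mL M-CSF. The adherent cells were then cultured for 48 h with 30 ng/mL M-CSF in 4 groups of 2 samples each. The group no PRDX1 + no RANKL received neither agent. The group PRDX1 + no RANKL received 200 nM recombinant peroxiredoxin 1, a thiol peroxidase added here to the medium, made in bacteria with a histidine tag and passed over an endotoxin-removing resin. The group no PRDX1 + RANKL received 100 ng/mL RANKL, the cytokine that starts osteoclast differentiation, and the group PRDX1 + RANKL received both. No source states that the samples of a group came from separate animals or cultures, so the p-values measure only the spread between these samples, which may be technical.

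Macrophages take in iron bound to transferrin through the transferrin receptor, and they take in far more of it as heme when they digest old red blood cells. Heme oxygenase opens the heme ring and frees its iron, which is then either caged in ferritin, a shell built of heavy and light chains, or sent out of the cell through ferroportin, the only known exporter of iron in mammals. Iron regulatory proteins set part of this balance by binding short hairpins in mRNAs, the iron-responsive elements: bound to a hairpin before the coding sequence they hold back translation, and bound to hairpins after it they protect the mRNA from decay. Osteoclasts are rich in mitochondria, whose respiratory chain needs heme and iron-sulfur clusters.

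The elements of these mRNAs are shown because hairpins of the same pattern lie after the coding sequence of Tfrc and before that of Fth1, Ftl1 and Slc40a1. Their sequences were read from the mm10 (GRCm38) genome with GENCODE gene models. The search asked for a C, any 5 bases, the loop CAGTGN with no G at its last place, and 5 further bases that pair with those 5, where G may pair with T, on the strand of the mRNA. It found 7 elements in 4 of the 10 genes, and the same pattern was found in 222 of 21877 coding genes (1.01%). For the 10 genes only the transcript matched to the deposited row was searched. A coding gene was counted if any of its coding transcripts held the pattern, so these counts were not made in the same way. The capitals mark the 6 bases of the loop, and all 7 elements are given 5′ to 3′.
Tfrc element 1: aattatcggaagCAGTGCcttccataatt
Tfrc element 2: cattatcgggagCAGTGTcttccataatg
Tfrc element 3: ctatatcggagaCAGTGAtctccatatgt
Tfrc element 4: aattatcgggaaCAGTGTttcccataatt
Fth1 element: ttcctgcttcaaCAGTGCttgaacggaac
Ftl1 element: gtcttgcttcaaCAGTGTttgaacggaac
Slc40a1 element: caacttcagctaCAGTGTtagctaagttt
The 4 Tfrc elements lie in the 3′ UTR, in exon 19, at chr16:32631219-32631247, chr16:32631598-32631626, chr16:32631663-32631691 and chr16:32631710-32631738 on the plus strand. The Fth1 element lies in the 5′ UTR, in exon 1, at chr19:9982732-9982760 on the plus strand. The Ftl1 element, which shares 26 of its 29 bases with that of Fth1, lies in the 5′ UTR, in exon 1, at chr7:45459779-45459807 on the minus strand. The Slc40a1 element lies in the 5′ UTR, in exon 1, at chr1:45925465-45925493 on the minus strand. A match describes the sequence and not its use in these cells, and for the other 6 genes the search shows only that these letters were not present in the transcript searched.

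Expression was given as FPKM, the reads of a gene scaled by its transcript length and by the size of the library, and the reads behind the values summed to 24542578 to 41712971 per library. The 2 libraries of each group differed beyond counting noise and were treated as separate samples. The label of the cells held up against markers: all 8 macrophage markers stood at 1 FPKM or more in every library. Their summed level was 15718 to 17485 FPKM with neither agent, 16547 to 17009 with PRDX1 alone, 9857 to 10278 with RANKL alone and 13421 to 13821 with both, most of it from Lyz2, which encodes lysozyme (14117 ± 1223 FPKM, SD, n = 2, with neither agent). Some single markers moved further than the sum, such as the Fc receptor gene Fcgr1. It was 113 ± 0.547 FPKM (SD, n = 2) with neither agent, 162 ± 1.55 with PRDX1 alone, 8.49 ± 0.827 with RANKL alone and 51.3 ± 1.57 with both. With PRDX1 alone against neither agent, 5 of the 8 macrophage markers were higher and 3 lower (Csf1r, Lyz2 and Cd14). The summed level of 9 osteoclast markers was 34.4 to 35.3, 80.4 to 84.8, 1834 to 1931 and 235 to 243 FPKM in the order neither agent, PRDX1 alone, RANKL alone and both, with the calcitonin receptor gene Calcr at 0 in both groups without RANKL. Most of this sum came from Acp5 in every group. Of the 8 that were tested, 7 were higher with PRDX1 alone than with neither agent. The other, Itgb3, was lower, at 0.662 ± 0.0735 against 1.88 ± 0.101 FPKM (SD, n = 2). The osteoclast markers thus moved with RANKL and with PRDX1 alongside the iron genes. The macrophage markers moved with RANKL, and with PRDX1 in the presence of RANKL. Without RANKL, the macrophage sum with PRDX1 lay within the range with neither agent. The part of both sets of markers in the results below was not tested. Fewer cells of a type and less RNA per cell cannot be told apart in RNA from whole cultures. Red blood cell precursors, the other cells of marrow rich in several of these transcripts, left little trace: the 12 erythroid markers summed to at most 0.622 FPKM in any library, with Slc4a1 at 0 throughout. The 9 neutrophil markers summed to 8.62 to 12.8, 40.2 to 44.4, 16.4 to 17.3 and 35.3 to 38.9 FPKM in the order above, higher with PRDX1. The 6 fibroblast markers, at 7.74 to 10.4, 16.5 in both libraries, 7.504 to 9.54 and 15.4 to 19.0 FPKM, were also higher with PRDX1 in both settings, as were the B cell, T cell and dendritic cell sums, which stayed at or under 3.82 FPKM. The part of these markers in the PRDX1 results was not tested.

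Tests used limma with Benjamini-Hochberg adjustment over 11700 genes, on log2(FPKM + 1), and a gene was called when its adjusted p-value was under 0.05 and its fold change at least 1.5. Log2 differences below are on this scale, which understates changes of low genes, and are given with their standard errors. RANKL alone moved most of the iron genes: 8 of the 10 were called against no PRDX1 + no RANKL, 2 higher and 6 lower, where 21.8% of all genes tested were called, 11.8% higher and 9.96% lower. PRDX1 added to RANKL moved 7 of them, 5 higher and 2 lower, each against the direction of RANKL alone, where 10.2% of all genes were called, 6.03% higher and 4.17% lower. These comparisons share the libraries with no PRDX1 + RANKL, so opposite signs between them are not independent of each other. PRDX1 without RANKL moved 1 gene, Hmox1, which was higher, where 5.79% of all genes were called, 3.8% higher and 1.99% lower. With PRDX1 present in both groups, RANKL moved 3 genes, all lower, where 8.5% of all genes were called, 4.52% higher and 3.98% lower. The median difference of the 10 genes was -0.959 for RANKL alone and 0.511 for PRDX1 added to RANKL, beside 0.0957 and -0.0571 over all genes tested. Of the 8 macrophage markers, RANKL alone lowered 6 and PRDX1 added to RANKL raised 4, with medians of -0.826 and 0.627. For PRDX1 without RANKL 0 of them were called, with a median of 0.131.

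**Figure D1:**
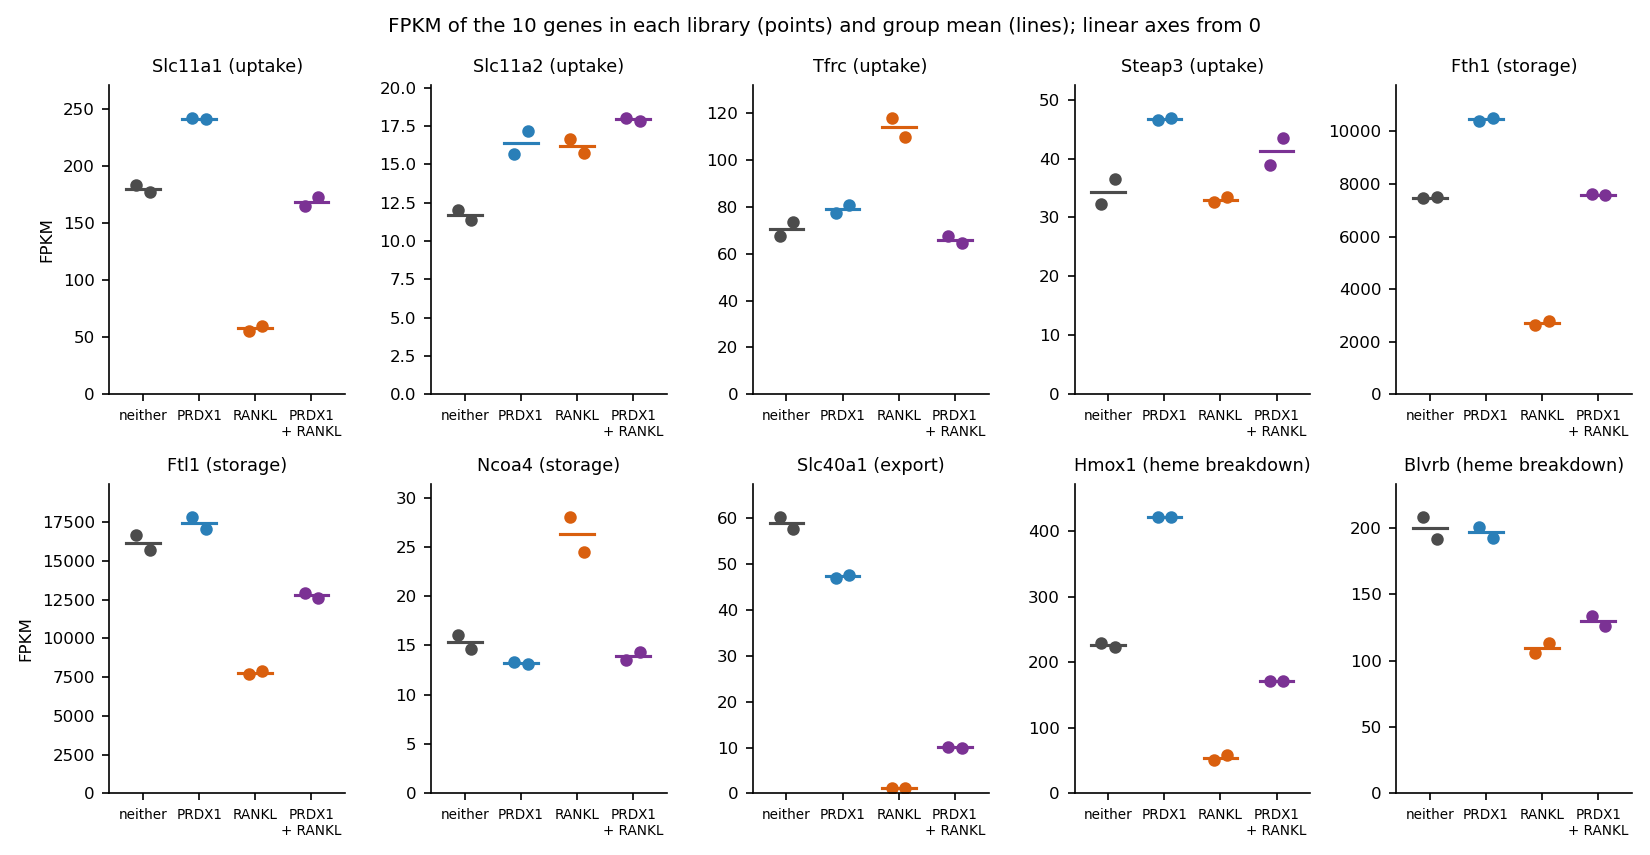
FPKM of the 10 iron genes (vertical axes, linear from 0) in each of the 8 libraries (points) with group means (lines), grouped by no agent, PRDX1, RANKL and both. Slc40a1 lies near the axis with RANKL alone, while Tfrc and Ncoa4 are highest there, and Hmox1 is highest with PRDX1 alone.

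**Figure D2:**
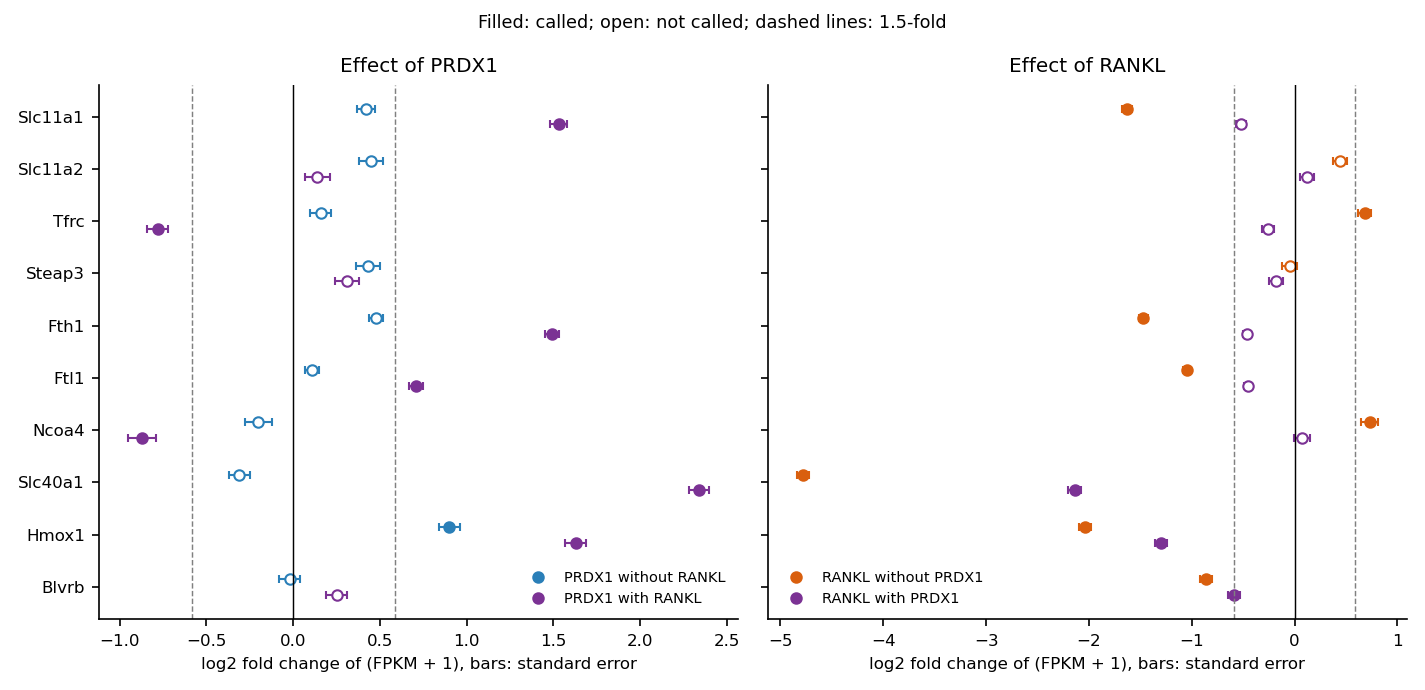
Log2 differences of FPKM + 1 for PRDX1 (left) and for RANKL (right) in the 10 iron genes, with bars for the standard error, filled points for genes called and dashed lines at 1.5-fold. With RANKL present the PRDX1 differences are spread from -0.87 in Ncoa4 to 2.34 in Slc40a1, whereas without RANKL 1 filled point, Hmox1 at 0.90, passes the line.

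Uptake genes did not move as a set. RANKL raised the transferrin receptor and lowered the phagosomal transporter, and PRDX1 added to RANKL moved both the other way, while the divalent metal transporter and the ferrireductase were called in no comparison, with adjusted p-values under 0.05 in some of them but differences under 1.5-fold on the log2(FPKM + 1) scale. Tfrc, the receptor that brings transferrin-bound iron into the cell (chr16:32608896-32632794, plus strand, 19 exons), stood at 67.8 and 73.5 FPKM with neither agent, 77.4 and 80.7 with PRDX1 alone, 118 and 109.8 with RANKL alone, and 67.6 and 64.6 with both. Both libraries with RANKL alone lay above the other 6. Tfrc rose by RANKL alone, with a log2 difference of 0.68 ± 0.06 (adjusted p = 3.95e-06, 1.61-fold in mean FPKM). It fell when PRDX1 was added to RANKL, with a log2 difference of -0.78 ± 0.06 (adjusted p = 3.98e-06). With both agents its level was 66.1 ± 2.11 FPKM (SD, n = 2), beside 70.6 ± 4.08 with neither, a log2 difference of -0.09 ± 0.06 that did not pass (adjusted p = 0.216).

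Slc11a1, the natural resistance-associated macrophage protein that pumps iron and manganese out of the phagosome (chr1:74375203-74386051, plus strand), moved the other way with RANKL. It stood at 183 and 177 FPKM with neither agent, 242 and 241 with PRDX1 alone, 55.8 and 59.5 with RANKL alone, and 165 and 172 with both. No 2 groups overlapped, with RANKL alone lowest and PRDX1 alone highest. Slc11a1 fell by RANKL alone (log2 difference -1.63 ± 0.05, adjusted p = 1.78e-09), which was 3.12-fold in mean FPKM, and rose when PRDX1 was added to RANKL (1.53 ± 0.05, adjusted p = 1.33e-08). Its higher level with PRDX1 alone than with neither agent, 0.42 ± 0.05, had an adjusted p of 1.38e-04 but lay under 1.5-fold. Both agents against neither gave -0.09 ± 0.05 (adjusted p = 0.145). RANKL with PRDX1 present, under 1.5-fold in limma, was called under voom on reads recovered from the FPKM values, at -0.60 (adjusted p = 2.36e-10).

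Slc11a2, the divalent metal transporter that moves iron across the endosomal membrane (chr15:100387900-100423055, minus strand), ranged only from 11.4 to 18.1 FPKM over the 8 libraries. Its exons overlap those of Gm5475 on the opposite strand, and since reads of both strands were counted, a part of its value may belong to that gene. The libraries with neither agent, at 12.1 and 11.4 FPKM, lay below the other 6. The log2 difference of both agents against neither was 0.58 ± 0.07 (adjusted p = 7.17e-05), just under the fold threshold on this scale and 1.53-fold in mean FPKM, and it passed, at 0.61, when replicate 1 of no PRDX1 + no RANKL was left out, at 0.61 with a pseudocount of 0.1, and at 0.59 under limma's voom on reads recovered from the FPKM values. Steap3, the ferrireductase that reduces iron in the endosome before Slc11a2 moves it (chr1:120226416-120265280, minus strand), was 34.4 ± 3.01 FPKM (SD, n = 2) with neither agent, 46.7 ± 0.326 with PRDX1 alone, 33.0 ± 0.653 with RANKL alone and 41.2 ± 3.23 with both. Both PRDX1 groups lay above both groups without it, by 0.43 ± 0.07 in the absence of RANKL (adjusted p = 0.00137) and 0.31 ± 0.07 in its presence (adjusted p = 0.00587), neither reaching 1.5-fold. The RANKL difference of Steap3 without PRDX1, -0.05 ± 0.07, was within the spread of the libraries, which overlapped.

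Ferritin transcripts were among the most abundant of the cells, and RANKL lowered both chains while PRDX1 raised them again. Ftl1, the light chain (chr7:45457944-45459886, minus strand), had the highest FPKM of all genes in 6 libraries and ranked 2 in the libraries with RANKL alone. Fth1, the heavy chain, whose ferroxidase site oxidizes iron for storage (chr19:9982646-9985111, plus strand), ranked 3 to 6. Together they took 2.48% ± 0.085 (SD, n = 2) of the reads on genes with neither agent, 2.91% ± 0.057 with PRDX1 alone, 1.11% ± 0.023 with RANKL alone and 2.15% ± 0.033 with both. The counting error of these shares was small, with 95% binomial intervals (Wilson method) at most 0.012 percentage points wide, so the spread between libraries and not the depth limits them.

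Fth1 stood at 7469.5 and 7493 FPKM with neither agent, 10385 and 10519 with PRDX1 alone, 2629 and 2773 with RANKL alone, and 7603 and 7571 with both. Mean FPKM with both agents was 1.01 times that with neither, and the log2 difference of 0.02 ± 0.04 did not pass (adjusted p = 0.704). Fth1 fell by RANKL alone, with a log2 difference of -1.47 ± 0.04 (adjusted p = 7.93e-10), and rose by PRDX1 added to RANKL, with 1.49 ± 0.04 (adjusted p = 5.6e-09). PRDX1 without RANKL gave 0.48 ± 0.04 (adjusted p = 1.39e-05), under 1.5-fold.

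Ftl1 stood at 16697 and 15669 FPKM with neither agent, 17851 and 17048 with PRDX1 alone, 7673 and 7901 with RANKL alone, and 12942 and 12599 with both. The level of the light chain with both agents stayed below both groups without RANKL, at -0.34 ± 0.04 against neither agent (adjusted p = 1.65e-04), under 1.5-fold. Ftl1 fell by RANKL alone, with a log2 difference of -1.05 ± 0.04 (adjusted p = 2.39e-08), and rose by PRDX1 added to RANKL, with 0.71 ± 0.04 (adjusted p = 1.26e-06). Under quantile normalization these became -0.199 and 0.199 and were no longer called. That method gives the same set of values, rank by rank, to every library. Per length, Fth1 came to 0.463 ± 0.022 of Ftl1 (ratio of FPKM, SD, n = 2) with neither agent, 0.599 ± 0.025 with PRDX1 alone, 0.347 ± 0.0057 with RANKL alone and 0.594 ± 0.0099 with both. The ratio was higher in all 4 libraries with PRDX1 than in all 4 without it, a description for which no test was run. Both genes have processed pseudogenes in the genome (among them Fth-ps2, Fth-ps3, Ftl1-ps2 and Ftl2-ps), the exons of Ftl1 overlap those of Gm10252 and Gm22133, and how the counting shared such reads is not given in the sources used here, so the levels and the ratio are uncertain to that extent.

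**Figure D3:**
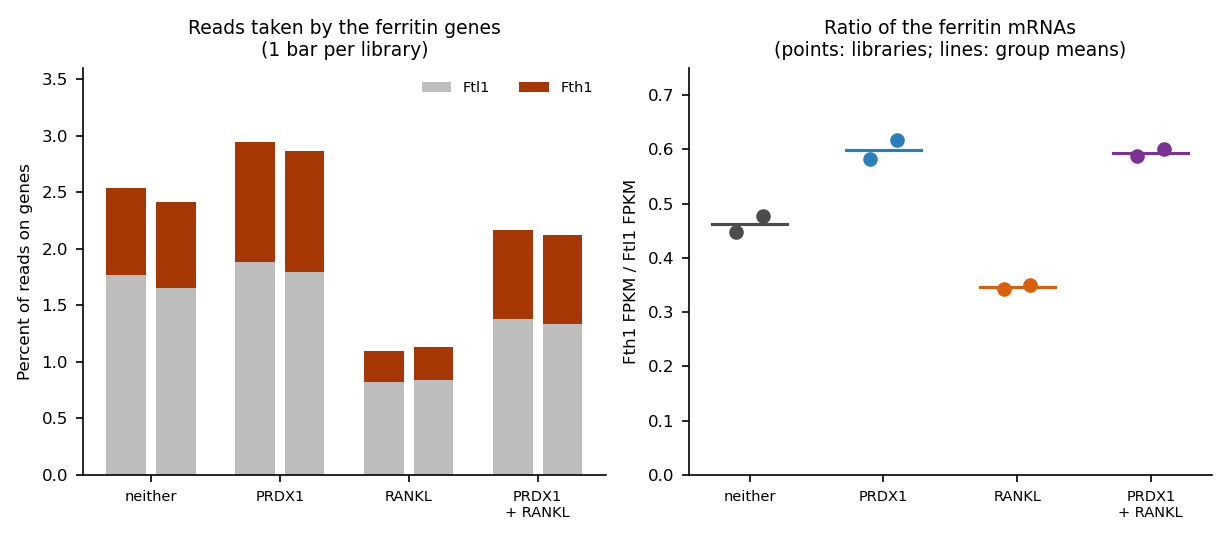
Left, percent of reads on genes taken by Ftl1 (grey) and Fth1 (red), 1 bar per library from 0; right, ratio of Fth1 to Ftl1 FPKM per library (points) with group means (lines). The bars are lowest with RANKL alone, at 1.11% on average, and the ratio is higher in the 4 libraries with PRDX1 than in the 4 without.

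Ncoa4, the receptor that carries ferritin to the lysosome so that its iron can be released (chr14:32165789-32179855, plus strand), moved opposite to ferritin. It stood at 16.1 and 14.7 FPKM with neither agent, 13.3 and 13.1 with PRDX1 alone, 28.1 and 24.5 with RANKL alone, and 13.5 and 14.3 with both. Both libraries with RANKL alone lay above the other 6, as they did for Tfrc. Ncoa4 rose by RANKL alone, with a log2 difference of 0.73 ± 0.08 (adjusted p = 1.75e-05), and fell by PRDX1 added to RANKL, with -0.87 ± 0.08 (adjusted p = 1.29e-05). With PRDX1 present in both groups, RANKL gave 0.07 ± 0.08 (adjusted p = 0.491).

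Export showed the largest change among the 10 genes. Slc40a1, which encodes ferroportin (chr1:45908070-45925594, minus strand, 8 exons), stood at 60.4 and 57.6 FPKM with neither agent, 47.0 and 47.7 with PRDX1 alone, 1.15 and 1.20 with RANKL alone, and 10.1 and 9.95 with both. The low values rest on 106 and 140 reads with RANKL alone and on 1568 and 1406 reads with both agents, well above the floor of 3 reads. No 2 groups overlapped. Slc40a1 fell by RANKL alone, with a log2 difference of -4.78 ± 0.06 (adjusted p = 1.21e-11), and mean FPKM was 50.1-fold lower. It rose 8.5-fold in mean FPKM when PRDX1 was added to RANKL, with a log2 difference of 2.34 ± 0.06 (adjusted p = 5.04e-09). With both agents Slc40a1 was 5.89-fold below neither agent in mean FPKM, at -2.45 ± 0.06 (adjusted p = 1.21e-09), whereas the same difference did not pass for Fth1, Slc11a1 and Tfrc. Without RANKL, PRDX1 gave a small difference in the other direction, -0.31 ± 0.06 (adjusted p = 0.00302), under 1.5-fold.

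Of the 2 genes of heme breakdown, Hmox1 rose with PRDX1 whether or not RANKL was present, and Blvrb did not pass with PRDX1 in either setting. Hmox1, the inducible heme oxygenase (chr8:75093618-75100593, plus strand, 5 exons), stood at 229 and 224 FPKM with neither agent, 421 and 422 with PRDX1 alone, 50.2 and 59.0 with RANKL alone, and 171 and 171 with both. No 2 groups overlapped. Hmox1 rose by PRDX1 without RANKL, with a log2 difference of 0.90 ± 0.06 (adjusted p = 7.36e-06, 1.86-fold in mean FPKM), and by PRDX1 with RANKL, with 1.63 ± 0.06 (adjusted p = 4.90e-08, 3.13-fold). It fell by RANKL alone, with -2.04 ± 0.06 (adjusted p = 3.16e-09), and by RANKL in the presence of PRDX1, with -1.30 ± 0.06 (adjusted p = 3.12e-07). Both agents against neither gave -0.40 ± 0.06 (adjusted p = 6.61e-04), under 1.5-fold.

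Blvrb, the biliverdin reductase B that acts after heme oxygenase and also reduces flavins (chr7:27447978-27465981, plus strand), stood at 208 and 191 FPKM with neither agent, 201 and 192 with PRDX1 alone, 106 and 113 with RANKL alone, and 134 and 126 with both. The 2 groups without RANKL overlapped, and all 4 libraries with RANKL lay below them. Blvrb fell by RANKL alone (log2 difference -0.86 ± 0.06, adjusted p = 6.10e-07). It also fell by RANKL with PRDX1 present (-0.59 ± 0.06, adjusted p = 2.88e-05), a call that is lost, at -0.56 or -0.55, when replicate 1 of PRDX1 + no RANKL or replicate 2 of PRDX1 + RANKL is left out, and at -0.57 under quantile normalization. The addition of PRDX1 to RANKL gave 0.25 ± 0.06 (adjusted p = 0.00607).

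Whether the PRDX1 effect depended on RANKL was tested by the interaction, the PRDX1 difference with RANKL minus that without it. It was called for 7 of the 10 genes, where 8.85% of all genes tested were called, 4.5% above 0 and 4.35% below. It was above 0 for Slc40a1 (2.65 ± 0.08, adjusted p = 6.80e-08), Slc11a1 (1.11 ± 0.07, adjusted p = 3.81e-06), Fth1 (1.01 ± 0.05, adjusted p = 1.90e-06), Hmox1 (0.74 ± 0.09, adjusted p = 3.33e-04) and Ftl1 (0.60 ± 0.06, adjusted p = 1.11e-04). It was below 0 for Tfrc (-0.94 ± 0.08, adjusted p = 3.67e-05) and Ncoa4 (-0.66 ± 0.11, adjusted p = 0.00176). For Slc11a2, Steap3 and Blvrb it was -0.31 ± 0.09, -0.13 ± 0.10 and 0.27 ± 0.08, none of them called. For Ftl1 the call is lost, at 0.56, 0.57 and 0.58, without replicate 1 of no PRDX1 + no RANKL, replicate 2 of PRDX1 + no RANKL and replicate 1 of no PRDX1 + RANKL, at 0.20 under quantile normalization, and without the filter on low values, where the adjusted p was 0.1. For Ncoa4 it is lost, at -0.57, without replicate 1 of no PRDX1 + RANKL. With both agents against neither, 2 of the 10 genes were called, both lower (Slc40a1, and Blvrb at -0.62 ± 0.06 with an adjusted p of 1.34e-05), where 12.8% of all genes tested were called, 7.5% higher and 5.34% lower. The call for Blvrb is lost, at -0.56 and -0.58, without replicate 1 of no PRDX1 + no RANKL and replicate 2 of PRDX1 + RANKL.

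Other genes of iron and heme handling, are described by lists of pathway members, and no test compared 1 list with another. Of the other iron transport and storage genes, 15 were expressed enough to test, and RANKL alone raised 1 and lowered 6 of them, beside 11.8% higher and 9.96% lower over all genes, while PRDX1 added to RANKL raised 3 and lowered 1, beside 6.03% and 4.17%. The 3 became 4 under quantile normalization, 5 under upper quartile scaling and 6 under voom, and for RANKL alone voom called 2 higher and 8 lower. Over all 11700 genes the higher calls for PRDX1 added to RANKL went from 705 to 743, 773 and 1097 in the same order. For RANKL alone voom called 1317 higher and 1689 lower over all genes, beside 1383 and 1165 in the main analysis. PRDX1 without RANKL raised 1 and lowered 1 (3.8% and 1.99% over all genes), and RANKL with PRDX1 present raised 1 and lowered 4 (4.52% and 3.98%), the 1 becoming 0 under quantile normalization. Cd163, the scavenger receptor for haptoglobin-bound hemoglobin, stood at 5.69 and 5.60 FPKM with neither agent, 1.56 and 1.60 with PRDX1 alone, 0.242 and 0.330 with RANKL alone, and 0.311 and 0.364 with both. It fell by PRDX1 without RANKL (-1.37 ± 0.10, adjusted p = 5.85e-06), in the direction opposite to Hmox1, and by RANKL alone (-2.37 ± 0.10, adjusted p = 1.62e-08), and PRDX1 added to RANKL gave 0.06 ± 0.10 (adjusted p = 0.665).

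Trf, which encodes transferrin, the iron carrier of plasma, stood at 41.1 and 40.2 FPKM with neither agent, 27.6 and 27.6 with PRDX1 alone, 7.35 and 7.47 with RANKL alone, and 11.8 and 12.4 with both. It fell by RANKL alone (-2.31 ± 0.06, adjusted p = 4.79e-10) and rose by PRDX1 added to RANKL (0.64 ± 0.06, adjusted p = 1.23e-05). Lcn2, the lipocalin that binds bacterial iron carriers and is also a neutrophil granule protein, rose by PRDX1 without RANKL (1.35 ± 0.16, adjusted p = 1.66e-04) and with it (1.16 ± 0.16, adjusted p = 2.41e-04), but from low levels, 0.639 and 0.113 FPKM with neither agent and 3.20 and 3.16 FPKM with both. The summed neutrophil markers given above were also higher with PRDX1, and their part in the Lcn2 result was not tested. Steap4, another ferrireductase of the Steap family, was nearly limited to RANKL alone, with 249 and 287 reads there, 4 reads or fewer in every library without RANKL, and 22 and 6 reads with both agents. Its log2 difference was 1.89 ± 0.11 by RANKL alone (adjusted p = 2.80e-07) and -1.78 ± 0.11 by PRDX1 added to RANKL (adjusted p = 1.27e-06). Slc39a8, a zinc and iron importer, fell by RANKL alone (-1.58 ± 0.12, adjusted p = 1.81e-06), Slc25a37, the mitochondrial iron importer mitoferrin, rose by PRDX1 added to RANKL (0.72 ± 0.09, adjusted p = 1.25e-04), and Cp, the ferroxidase ceruloplasmin that works beside ferroportin, fell by RANKL alone (-1.14 ± 0.10, adjusted p = 6.24e-06). Hamp, which encodes hepcidin, the hormone that removes ferroportin from the membrane, was listed at 0 in every library.

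Of 10 regulators of iron and heme genes, all tested, RANKL alone raised 1 and lowered 1, and PRDX1 added to RANKL and RANKL with PRDX1 present each raised 1. With 11.8% of all genes called higher and 9.96% lower by RANKL alone, and 6.03% and 4.52% higher in the other 2 comparisons, counts of 1 in 10 are not read as a result about the regulators. The count lowered by RANKL alone was 2 under quantile normalization, upper quartile scaling and voom alike, and the count raised by PRDX1 added to RANKL was 2 under voom. PRDX1 without RANKL gave 0 calls by limma, where 5.79% of all genes were called, with 5 genes at an unadjusted p under 0.05 and 1 called by voom. This count is likewise not read as a result about the regulators. The iron regulatory proteins Aco1 and Ireb2, which bind the hairpins shown above, were called in none of the 6 comparisons, with log2 differences between -0.23 and 0.27. Of the factors that act on the Hmox1 promoter, the repressor Bach1 differed by 0.41 ± 0.06 and the activator Nfe2l2 by -0.57 ± 0.06 with RANKL alone (adjusted p = 1.65e-04 and 1.34e-05), both under 1.5-fold, Nfe2l2 by a narrow margin (1.498-fold in mean FPKM). PRDX1 without RANKL gave -0.19 ± 0.06 for Bach1 and -0.15 ± 0.06 for Nfe2l2, and PRDX1 added to RANKL gave -0.09 ± 0.06 and 0.26 ± 0.06 (adjusted p = 0.262 and 0.00485), none of them reaching 1.5-fold. Mafg, a small partner of both factors, fell by RANKL alone (-0.79 ± 0.05, adjusted p = 5.48e-07). Fbxl5, the ubiquitin ligase subunit that senses iron and removes Ireb2, rose by PRDX1 added to RANKL (0.60 ± 0.07, adjusted p = 1.14e-04), a call lost at 0.56 and 0.55 without replicate 2 of no PRDX1 + RANKL and replicate 1 of PRDX1 + RANKL. Spic, a factor known for the development of the iron-recycling macrophages of the spleen, rose by RANKL alone (2.04 ± 0.15, adjusted p = 1.70e-06) from 0.215 and 0.152 to 4.64 and 3.22 FPKM, while Slc40a1 and Hmox1 fell.

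Of 8 heme synthesis genes tested, 0 were called by limma in the 4 comparisons of a single agent, where 5.79% to 21.8% of all genes were called, and with a list this short nothing is read from that count. At an unadjusted p under 0.05, 4, 4, 4 and 3 of them passed for PRDX1 without and with RANKL and for RANKL without and with PRDX1, and limma's voom on the recovered reads called 0 in each. Alas1, the first enzyme of the pathway, was called higher for both agents against neither (0.79 ± 0.07, adjusted p = 1.75e-05). In heme transport and the rest of heme breakdown, 1 of 10 genes tested was called in any of these 4 comparisons, where 5.79% to 21.8% of all genes were called. This was Slc48a1, which moves heme out of the lysosome. For PRDX1 without RANKL this list gave 0 calls by limma, with 5 genes at an unadjusted p under 0.05, 1 called under upper quartile scaling and 2 called by voom. Slc48a1 stood at 128 and 127 FPKM with neither agent, 193 and 187 with PRDX1 alone, 52.7 and 51.0 with RANKL alone, and 114 and 119 with both. The order of these levels was like that of Hmox1 and Fth1 in having PRDX1 alone highest and RANKL alone lowest. Slc48a1 fell by RANKL alone (-1.29 ± 0.04, adjusted p = 5.63e-09) and rose by PRDX1 added to RANKL (1.15 ± 0.04, adjusted p = 4.76e-08). The constitutive Hmox2 and Blvra, the main biliverdin reductase, were not called in any comparison, and Blvra gave -0.34 and -0.35 for RANKL without and with PRDX1 and -0.01 and -0.02 for PRDX1 without and with RANKL.

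The 19 genes of iron-sulfur cluster assembly, all of them tested, lay on the opposite side of 0 from ferritin and ferroportin in the comparisons of RANKL alone and of PRDX1 added to RANKL. With RANKL alone 6 were called higher and none lower, beside 11.8% and 9.96% of all genes, and all 19 had differences above 0, with a median of 0.411 beside 0.0957 over all genes. With PRDX1 added to RANKL 4 were called lower and none higher, beside 4.17% and 6.03% of all genes, and all 19 had differences below 0, with a median of -0.367 beside -0.0571. Both directions held for all 19 under quantile normalization, upper quartile scaling and voom, with 4 to 5 called higher and 3 to 5 called lower. Fdxr, the reductase that feeds electrons to cluster assembly, rose by RANKL alone (0.85 ± 0.12, adjusted p = 1.59e-04) and fell by PRDX1 added to RANKL (-0.78 ± 0.12, adjusted p = 5.78e-04). Glrx5, which passes clusters on, rose by 0.74 ± 0.07 and Fdx1, the ferredoxin, by 0.75 ± 0.07 with RANKL alone (adjusted p = 6.69e-06 and 1.33e-05). Hspa9, the mitochondrial chaperone of cluster transfer, rose by 0.79 ± 0.04 with RANKL alone (adjusted p = 1.85e-07), and Isca1, a late-acting assembly protein, fell by 0.64 on the log2 scale with PRDX1 added to RANKL (adjusted p = 7.65e-05), a call lost at -0.57 without replicate 1 of no PRDX1 + RANKL. PRDX1 without RANKL gave 0 calls by limma and 0 by voom among the 19, beside 5.79% of all genes by limma, with 7 at an unadjusted p under 0.05 and a median of -0.102. RANKL with PRDX1 present likewise gave 0 by both, beside 8.5% of all genes by limma, with 9 at an unadjusted p under 0.05. Counts of 0 in 19 at these shares are not read as a result about the list.

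**Figure D4:**
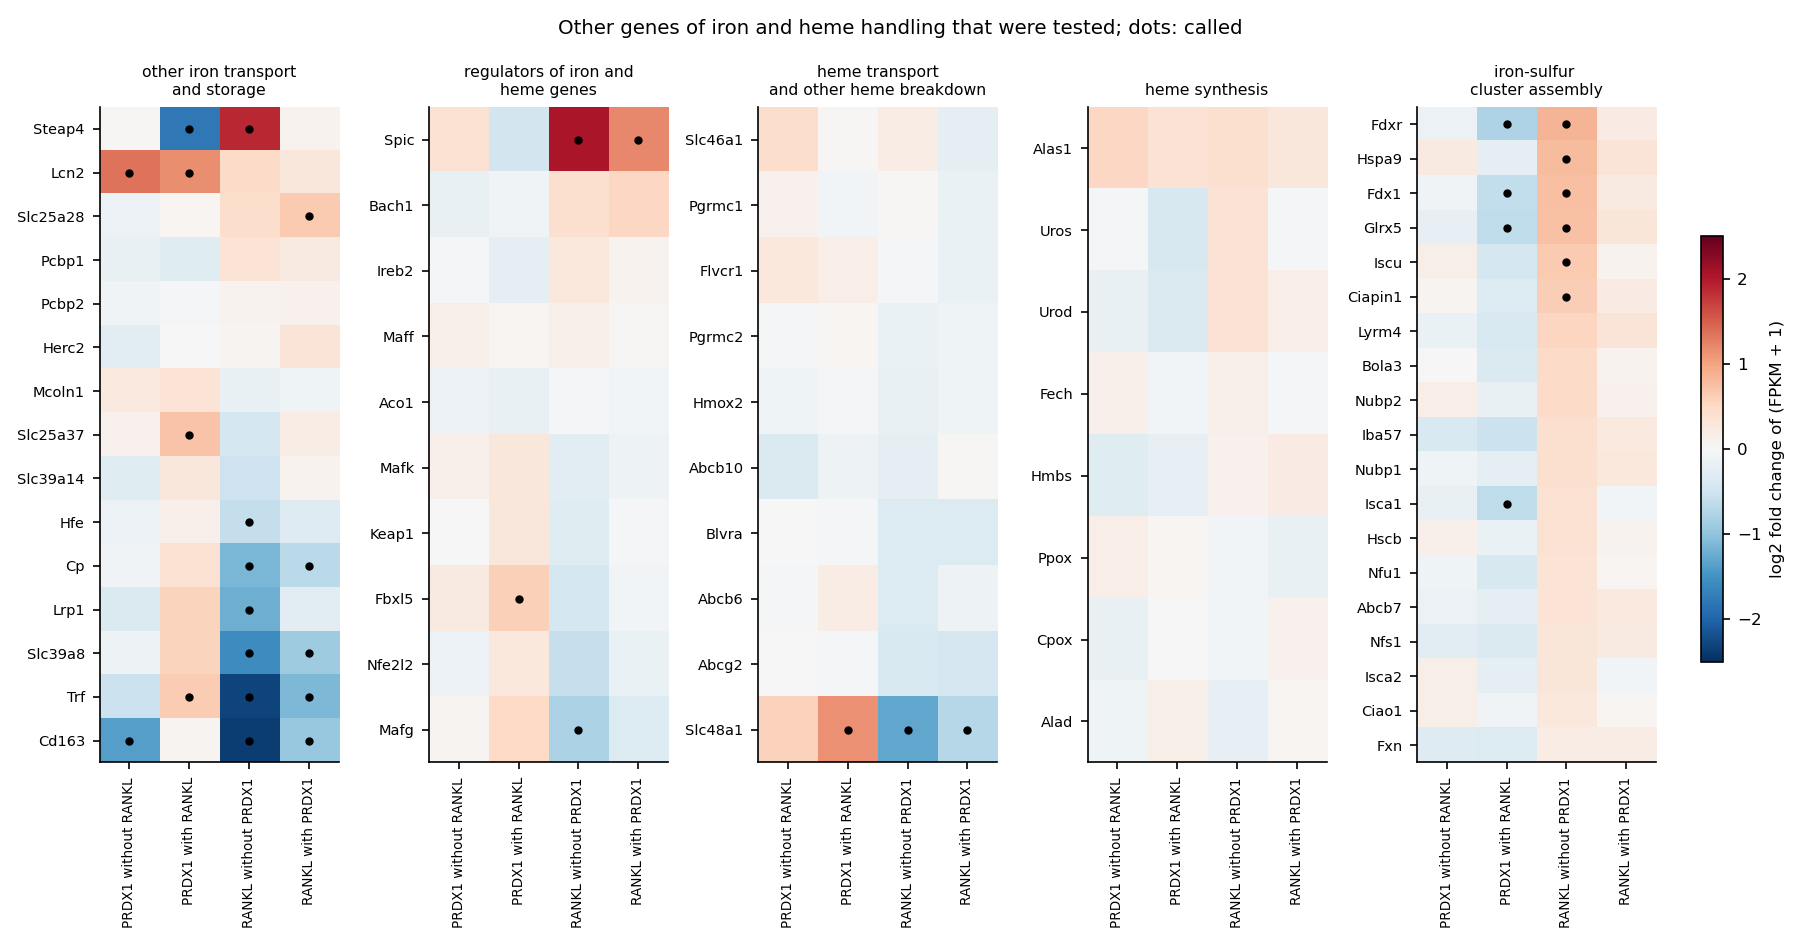
Log2 differences of FPKM + 1 (color, red higher and blue lower) of the tested genes of 5 pathway lists (rows) in the 4 comparisons of a single agent (columns), with dots on genes called. The iron-sulfur panel is red throughout for RANKL alone and blue throughout for PRDX1 with RANKL, while the heme synthesis panel holds no dot.

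Genes whose levels followed those of the iron genes most closely were found by Pearson correlation of log2(FPKM + 1) over the 8 libraries, among 1527 genes whose group means spanned at least 1 on this scale. The 8 points share 4 groups and are not independent, so the coefficients describe the pattern only. Slc40a1 was followed most closely by C1qc, a chain of complement C1q (r = 0.9990), and by Spp1, Slc7a7, Iqgap2 and Cat. Hmox1 was followed by Ctsd, the lysosomal protease cathepsin D (r = 0.9989), and by Fnip2, Ccl7, Wfdc17 and Psap. The nearest gene to Fth1 was Bhlhe41, a transcription factor (r = 0.9985), and the next was Slc11a1 (r = 0.9981), itself one of the 10, ahead of Ampd3, Marcksl1 and Phf11a. The nearest to Tfrc were Adcy3 (r = 0.9821), Rcan1, Atp6v1d, a subunit of the proton pump, Ext1 and Sphk1. The likeness was looser for Tfrc than for the other 3 genes, and the nearest genes of the 4 did not overlap. The largest difference between groups for Tfrc itself, -0.78, was smaller in size than the 1 asked of the genes compared. Its part in the looser likeness was not tested.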

How the data were processed

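Total RNA of 8 samples was sequenced. The authors aligned the reads with HISAT2, counted them on RefSeq exons of mm10 with HOMER on both strands, kept 1 transcript per gene and deposited FPKM values, per the file headers and processing notes, which also name DESeq2; versions are not given in the sources used here. From these, log2(FPKM + 1) was fitted here with limma 3.58.1 in R 4.3.3 (1 model of 4 groups, intensity trend, 4 residual degrees of freedom) for the 11700 genes averaging 0.5 FPKM or more, with Benjamini-Hochberg adjustment. Calls needed an adjusted p-value under 0.05 and 1.5-fold. FPKM multiplied by transcript length gave whole reads (within 0.05) for 100% of the genes checked, and these reads gave shares and a voom alternative. The fit was also run on simulated data with a fixed spread and changes above 1.5-fold planted in PRDX1 + RANKL. Only PRDX1 added to RANKL was read there, so it does not test the interaction, the threshold itself or the spread between these libraries. The 10 genes, the pathway and marker lists and the tests were chosen with earlier results of these data known. Named genes were the 10, up to 3 called genes of largest change per list and comparison, a fixed set of regulators and, for 4 genes, the 5 of most similar pattern. Of the list genes, 2 were not matched in the table. Intervals and the floor of 3 reads cover counting error only. Columns of per-sample values other than these 8 libraries numbered 0. Alternatives were other pseudocounts, scalings and filters, a replicate block, voom, and leaving out each library.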

Additional observations from a re-analysis of the deposited data

Results flagged for a closer look

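Each result here was singled out because the PRDX1 difference with RANKL departed from that without RANKL, tested as the interaction in limma with Benjamini-Hochberg adjustment over all genes. Among the 10 iron genes the departures, on the log2(FPKM + 1) scale, were 2.65 for Slc40a1, 1.11 for Slc11a1, 1.01 for Fth1, 0.74 for Hmox1, 0.60 for Ftl1, -0.66 for Ncoa4 and -0.94 for Tfrc, with adjusted p-values from 6.80e-08 to 0.00176. In Slc40a1 the PRDX1 difference was below 0 without RANKL (-0.31) and above 0 with it (2.34), and in Tfrc it was above 0 without RANKL (0.16) and below 0 with it (-0.78), although the smaller value of each pair did not reach 1.5-fold.

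Among the other named genes the departures were 1.42 for Cd163 (adjusted p = 5.75e-05), 1.18 for Trf (adjusted p = 7.18e-06), -1.81 for Steap4 (adjusted p = 3.67e-05), 0.69 for Slc39a8 (adjusted p = 0.0165), 0.63 for Slc25a37 (adjusted p = 0.00561), -0.84 for Spic (adjusted p = 0.0204) and -0.64 for Fdxr (adjusted p = 0.0228). In Cd163 PRDX1 lowered the level without RANKL (-1.37) and not with it (0.06), where the level was already 0.242 to 0.364 FPKM. The calls for Ftl1, Slc39a8, Spic and Fdxr were lost without the filter on low values, with adjusted p-values of 0.1, 0.0707, 0.073 and 0.0886. Leaving out single libraries also ended the call for Slc25a37 (0.523 to 0.573 in 3 fits), Slc39a8 (0.519 to 0.668 in 3 fits), Spic (-0.803 to -0.634 in 4 fits) and Fdxr (-0.666 to -0.455 in 5 fits). Replicate 2 of no PRDX1 + RANKL was one of these libraries for Slc25a37, Slc39a8 and Fdxr, and replicate 2 of PRDX1 + no RANKL for all 4 genes. The others were replicate 2 of no PRDX1 + no RANKL (Slc25a37, Spic and Fdxr), replicate 2 of PRDX1 + RANKL (Slc39a8 and Spic), replicate 1 of no PRDX1 + RANKL (Spic), and replicate 1 of PRDX1 + no RANKL and of PRDX1 + RANKL (Fdxr).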

How the results depend on the processing

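Of 420 values of the 10 genes called in the main analysis and recomputed under an alternative, 407 kept direction and call and 13 lost the call with the same direction. A call was gained in 4 values: Slc11a1 for RANKL with PRDX1 (-0.599, voom), and Slc11a2 for both agents against neither (0.612 with a pseudocount of 0.1, 0.587 under voom, 0.614 without replicate 1 of no PRDX1 + no RANKL). Counts of genes called among the 10 stayed within 1.5 times under every alternative run but 1: for both agents against neither the count ranged from 1 to 2 when single libraries were left out, 1 without replicate 2 of PRDX1 + RANKL. The direction turned in 8 values, all of them under the threshold in every fit: Steap3 with RANKL alone became 0.0349 without replicate 2 of no PRDX1 + no RANKL (range -0.139 to 0.0349 over the libraries left out); Fth1 for both agents against neither became -0.014 under voom; Ncoa4 for RANKL with PRDX1 became -0.00727 under quantile normalization and -0.00526 under voom; and Blvrb for PRDX1 without RANKL became 0.0134 under upper quartile scaling, 0.0254 under voom, and 0.0367 and 0.00783 without replicate 1 of no PRDX1 + no RANKL and replicate 2 of PRDX1 + no RANKL (range -0.0847 to 0.0367). The ferritin share without the 10 most abundant other genes in the total was 2.64%, 3.14%, 1.16% and 2.27% in the order of the groups, and the Fth1 to Ftl1 ratio of reads not divided by length was 0.337 with RANKL alone and 0.577 with both. Over all genes, the calls under voom were 1317 higher and 1689 lower for RANKL alone (1383 and 1165 in the main analysis, 54.3% to 43.8% higher) and 597 higher and 805 lower for RANKL with PRDX1 (529 and 466, 53.2% to 42.6% higher), while higher calls went from 705 to 1097 for PRDX1 with RANKL and from 445 to 685 for PRDX1 without RANKL. With a pseudocount of 0.1 the lower calls for PRDX1 without RANKL went from 233 to 360. Replicate numbers did not pair the samples (correlations of deviations 0.00847 to 0.0965), and with the replicate block the genes called among the 10 numbered 1, 7, 8, 3, 2 and 7 for PRDX1 without and with RANKL, RANKL without and with PRDX1, both against neither and the interaction, as without it. The cause of these shifts was not tested. With 2 samples a group and mRNA alone, iron content and protein levels were not measured.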
